A study of Homo sapiens with 12 samples.

Results

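The genes described here are P-TEFb, the proteins that hold it inactive, and the kinases that work beside it on transcribing RNA polymerase II. They are 10 of the 18053 genes targeted by TKOv3, a pooled library of guides for Cas9 knockout, and each has 4 guides, 40 of 71090 in all. The members were chosen by their place in this pathway, with the scores of HEXIM1 and CCNT1 in HCC1806 under INX-315 already known. Values of that comparison are therefore given as a description without a test. Guides were assigned to genes by the names they carry in the deposited tables, and all 40 were listed in all 3 screens.

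P-TEFb is the kinase CDK9 bound to cyclin T1 or cyclin T2. It phosphorylates the polymerase and the pausing factors NELF and DSIF, which lets a paused polymerase run into the gene. A large share of P-TEFb in the cell is stored inactive on the small nuclear RNA 7SK, where HEXIM1 or HEXIM2 blocks the kinase, LARP7 binds the end of the RNA and MEPCE caps it. CDK12 and CDK13, each bound to cyclin K (CCNK), phosphorylate the same polymerase tail further into the gene and are needed for full-length transcripts of long genes, DNA repair genes among them.

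HCC1806, a triple-negative breast cancer line, and MIA PaCa-2, a pancreatic cancer line, were infected with the library, selected with puromycin and grown with DMSO, the CDK2 inhibitor INX-315 at 500 nM, or the CDK4/6 inhibitor palbociclib. The HCC1806 INX-315 screen holds 1 start, 2 DMSO and 2 INX-315 libraries. The HCC1806 palbociclib screen holds 1 start, 1 DMSO and 1 palbociclib library, and the MIA PaCa-2 screen 1 start, 1 DMSO, 1 INX-315 and 1 palbociclib library. Palbociclib was used at 500 nM in HCC1806 and 250 nM in MIA PaCa-2 by the protocol, while the label of the HCC1806 library gives 250. By the labels the starts are passage 0 in HCC1806 and 1 in MIA PaCa-2 and all others passage 8, whereas the methods give up to 5 passages. All groups carry the same knockout library, each line is a single cell population, and the numbered HCC1806 libraries are named biological replicates in the supplement of the study. Whether they came from separate infections was not stated in the sources used here, so p-values measure the spread between these libraries.

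Library totals ran from 24946956 to 58875726 counts. Levels are in CPM, the usual scaling of counts to an equal library total. Where a guide had no count, the limit of 3 counts lay between 0.051 and 0.1203 CPM, and such limits cover counting error only since the PCR reads carry no molecular identifiers. DMSO 1 of the HCC1806 INX-315 screen stood apart. It held 11906 guides under 30 counts against 4368 in DMSO 2. Its median gene lay 0.85 below the start on the log2 scale, against 0.11 in DMSO 2. Calls of members that rest on it are given with and without it.

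A guide whose knockout slows growth is diluted while the cells divide, and the change of its CPM from the start of its own screen measures that loss. Changes are log2 of CPM plus 0.5, as the mean ± SD of the 4 guides of a gene. Guides to 1 gene are not independent cultures.

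CDK9, the catalytic subunit of P-TEFb, was among the most depleted members in every library of HCC1806. Its mean change was -3.89 ± 1.86 in DMSO 1, -3.38 ± 1.88 in DMSO 2 and -2.83 ± 1.86 in the DMSO library of the palbociclib screen (n = 4 guides each). In MIA PaCa-2 it was -1.80 ± 2.11 with DMSO. The wide spread came from the guides. The guide at chr9:130548998-130549017 (plus strand) went from 487 and 397 counts at the HCC1806 starts to 0 in all 6 grown libraries of that line, and the guide at chr9:130550242-130550261 (minus strand) kept 128 to 199 counts in the 3 DMSO libraries. Guide coordinates are those in the guide names, whose genome build was not stated in the sources used here.

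The cyclins of CDK9 did not share this loss in DMSO. CCNT1, which encodes cyclin T1, changed by -0.36 ± 1.26, -0.47 ± 0.47 and 0.09 ± 0.43 in the 3 DMSO libraries of HCC1806 and by -0.50 ± 1.23 in MIA PaCa-2. CCNT2, which encodes cyclin T2, changed by -0.25 ± 1.91, 0.64 ± 1.25, 0.22 ± 0.77 and -0.36 ± 0.52 in the same order. The lowest of these means was the -0.50 of CCNT1 in MIA PaCa-2.

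The 7SK proteins differed among themselves. MEPCE, the capping enzyme of 7SK, was as depleted as CDK9, with -3.66 ± 1.97, -2.59 ± 1.91 and -3.49 ± 2.20 in the DMSO libraries of HCC1806 and -1.71 ± 0.82 in MIA PaCa-2. HEXIM1, an inhibitor subunit, was depleted less, by -2.48 ± 1.54, -1.08 ± 0.70 and -1.30 ± 1.09 in HCC1806 and -0.83 ± 0.57 in MIA PaCa-2, and all 4 of its guides were below the start in all 4 DMSO libraries. In DMSO 1 that mean included the guide at chr17:43227246-43227265 (minus strand), which had 0 counts there and 320 in DMSO 2. LARP7 stood at -1.75 ± 0.59, -0.56 ± 1.15, -0.73 ± 0.48 and -0.28 ± 0.64. HEXIM2, the paralogue of HEXIM1, stood at -0.89 ± 1.29, -0.34 ± 0.62, 0.69 ± 0.34 and 0.41 ± 0.59, without a direction shared by the libraries.

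Of the cyclin K kinases, CCNK itself was lost most, with -3.75 ± 1.91, -3.41 ± 1.23 and -3.11 ± 1.10 in HCC1806 and -2.27 ± 0.95 in MIA PaCa-2. CDK12 stood at -2.04 ± 2.22, -3.24 ± 1.11, -1.75 ± 1.72 and -1.51 ± 0.69, with a guide at chr17:37650877-37650896 (minus strand) that went from 403 counts to 2 in both DMSO libraries of the INX-315 screen. Its paralogue CDK13 stayed near the start, at -0.62 ± 1.47, -0.40 ± 0.42, -0.24 ± 0.30 and 0.17 ± 0.44. Of each paralogue pair, 1 gene (CCNT1, HEXIM1, CDK12) thus had the lower mean in all 4 DMSO libraries, for CCNT1 by less than the SD of its guides in 3 of them. For CDK12 the gap was also less than this SD in DMSO 1 and in the DMSO library of the palbociclib screen.

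**Figure D1:**
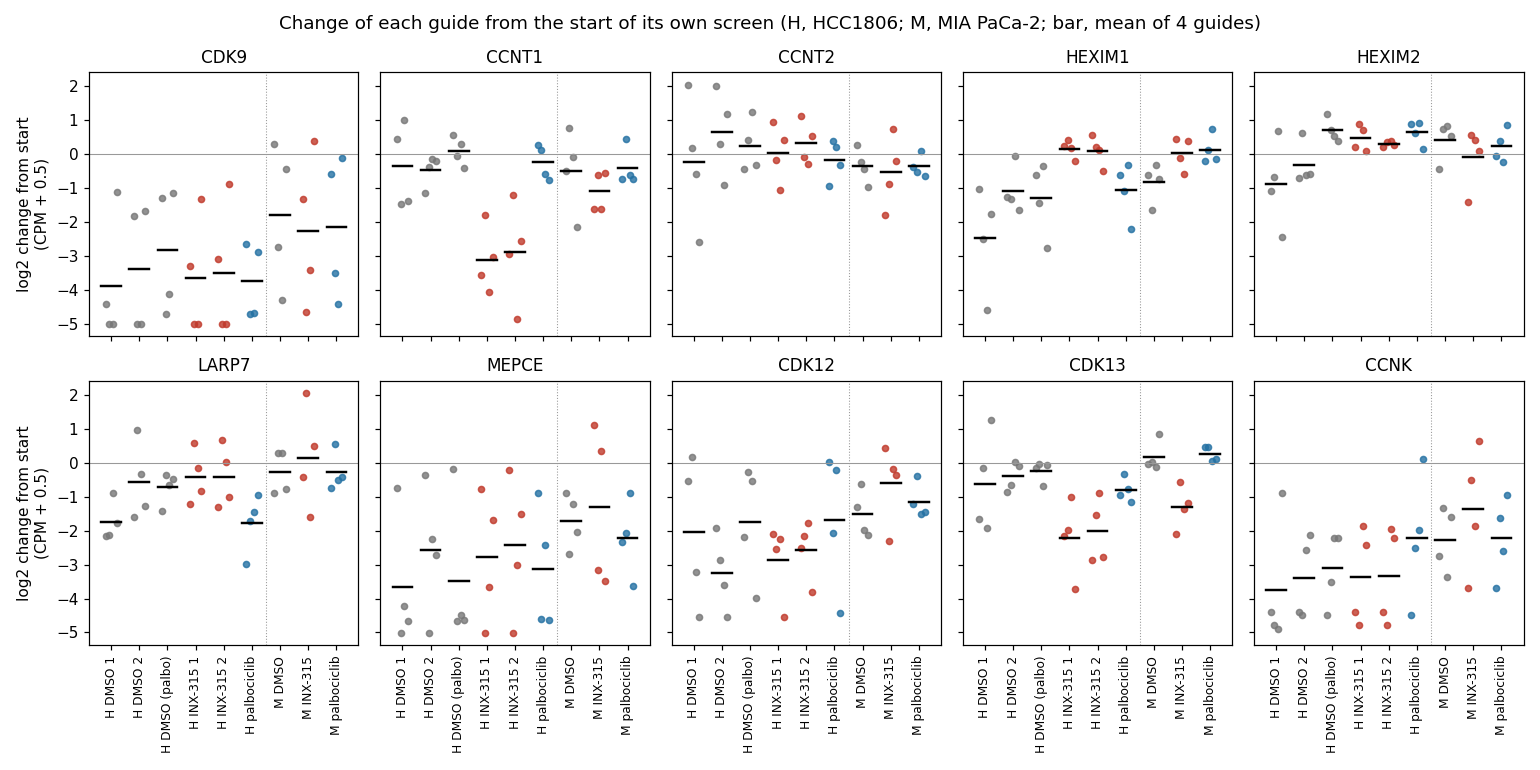
Change of each guide from the start library of its own screen, log2 of CPM plus 0.5, for the 10 genes in the 9 grown libraries (grey DMSO, red INX-315, blue palbociclib; bar, mean of 4 guides). CCNT1 and CDK13 sit near 0 in the DMSO libraries and low with INX-315 in HCC1806, HEXIM1 does the opposite, and CDK9, MEPCE, CDK12 and CCNK are low in most libraries.

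A fit of edgeR's quasi-likelihood test to counts summed over the guides of each gene, over all 12 libraries in 8 groups, tested the loss in DMSO with libraries as the replicates. In HCC1806 (3 DMSO against 2 start libraries) CCNK, CDK9, MEPCE and HEXIM1 fell and no member rose. The log2 changes were -3.58 ± 0.45 (SE) for CCNK (adjusted p = 0.0161), -2.70 ± 0.39 for CDK9 (adjusted p = 0.0212), -2.36 ± 0.43 for MEPCE (adjusted p = 0.0348) and -1.27 ± 0.23 for HEXIM1 (adjusted p = 0.0372). These are 4 of 10 members, where 3.42% of all 18051 genes tested passed in the lower direction and 0.0277% in the higher. CDK12 missed the threshold (-1.49 ± 0.68, adjusted p = 0.314), as did LARP7 (-0.85 ± 0.31, adjusted p = 0.216) and CCNT2 (0.72 ± 0.21, adjusted p = 0.134). CCNT1, HEXIM2 and CDK13 stood at 0.30 ± 0.35, 0.24 ± 0.33 and -0.05 ± 0.25.

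The loss of HEXIM1 in DMSO is not separate from the known score of HEXIM1 under INX-315, since DMSO 1 and 2 are the controls of both. The palbociclib screen of HCC1806 and the MIA PaCa-2 screen share no library with them, and there HEXIM1 stood at -1.30 ± 1.09 and -0.83 ± 0.57 in the DMSO libraries, the latter at the 10.9th percentile of all genes. Without DMSO 1 the edgeR calls on these 4 genes held and LARP7 joined them (-0.60, adjusted p = 0.0208), as CCNT2 did in the higher direction (0.69, adjusted p = 0.0445). That fit called 1986 genes lower and 1030 higher, against 617 and 5 in the main fit. The calls of LARP7 and CCNT2 were thus part of a rise in calls over all genes. With the screen as a term CCNK kept its call (adjusted p = 0.0481), and CDK9 (0.051), MEPCE (0.072) and HEXIM1 (0.0719) lost theirs, as HEXIM1 did without the DMSO library of the palbociclib screen (0.0638). Without either start library no gene of the library passed, with HEXIM1 at -1.38 and -1.14 and CDK9 at -2.76 and -2.62.

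MIA PaCa-2 has 1 library in each arm, so its spread was taken from HCC1806, and no gene passed in its DMSO against start comparison (0% of 18051; 478 at an unadjusted p under 0.05 and 115 adjusted calls by DESeq2). The log2 changes of the summed counts were -2.31 ± 0.71 for CCNK, -1.76 ± 0.68 for MEPCE, -1.63 ± 1.09 for CDK12, -1.01 ± 0.60 for CDK9 and -0.90 ± 0.37 for HEXIM1. DESeq2 called 1 member, CCNK (-2.34, adjusted p = 0.0026). The difference between the lines, tested as an interaction, also passed for no gene by edgeR (0%; 412 at an unadjusted p under 0.05, 39 adjusted by DESeq2). The largest member difference was CDK9, lower in HCC1806 by -1.69 ± 0.72 (adjusted p = 1 by edgeR), so a line difference was not detectable at this number of libraries.

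In the comparison of INX-315 with DMSO in HCC1806, scores of HEXIM1 and CCNT1 were known when the members were chosen. Its values are therefore a description. The DrugZ score (normZ) takes the log2 ratio of drug to DMSO for each guide, scales it by the spread among guides of like abundance, adds the guides of a gene and standardises over all genes. A score beyond 2 or -2 is called. CCNT1 scored -7.21, the 6th lowest of 18048 genes, CDK13 -4.89, the 21st lowest, and HEXIM1 3.60, the 3rd highest. These are 2 members below and 1 above, where 2.78% and 1.4% of all genes were called. Nothing is read from this count, since the scores of HEXIM1 and CCNT1 were known at the choice.

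Summed over its guides, CCNT1 had 54.6 CPM before growth. It had 78.0 CPM in DMSO 1, 42.9 CPM in DMSO 2, and 3.73 and 4.93 CPM in the INX-315 libraries. The INX-315 libraries lay below both DMSO libraries and the start. All 4 guides were lower with INX-315 in both pairs of libraries, with log2 ratios averaged over the pairs from -4.89 to -0.58 (mean -2.60 ± 1.81, scaled to 10000000 counts with a pseudocount of 5). The guide at chr12:49089905-49089924 (minus strand) started from 920 counts and had 1726 in DMSO 1, 760 in DMSO 2, and 33 and 13 with INX-315.

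HEXIM1 ran the other way, from 72.3 CPM at the start to 18.8 and 33.1 CPM in DMSO and 81.7 and 80.6 CPM with INX-315. Its libraries with INX-315 thus stood near the start (0.16 ± 0.27 and 0.09 ± 0.44 on the log2 scale), while the DMSO libraries had lost guides. The ratio to DMSO thus set libraries near the starting level against libraries below it. All 4 guides were higher with INX-315 in both pairs, with log2 ratios averaged over the pairs from 1.35 to 2.48. The highest average was that of the guide at chr17:43227246-43227265 (minus strand), with 4.78 against DMSO 1 and 0.17 against DMSO 2. Against DMSO 2 the guides ran from 0.17 to 1.83.

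CDK13 began at 66.6 CPM. Its DMSO libraries held 68.2 and 51.1 CPM and its INX-315 libraries 15.3 and 17.4 CPM, and 3 of 4 guides were lower with INX-315 on average, the other at 0.01. Its partner CCNK was already low in DMSO and moved little, with a score of -0.17. The paralogue CDK12 scored -0.54. It had 47.8 CPM at the start, 21.6 CPM in DMSO 1, 4.22 CPM in DMSO 2, and 5.96 and 7.42 CPM with INX-315. The INX-315 libraries thus lay below DMSO 1 and above DMSO 2 for CDK12. Its score was 1.29 without DMSO 1 and -1.63 without DMSO 2, so the sign depended on the control. CDK9 scored -0.50, from the 2 guides that had a count in any of these libraries. In each paralogue pair a single gene was called in this comparison (CCNT1, CDK13 and HEXIM1), and the score of its paralogue had the same sign. CCNT2 scored -0.88. It had 61.3 CPM at the start, 85.6 and 108.0 CPM in DMSO 1 and 2, and 64.0 and 75.3 CPM under INX-315. In each pair of libraries 3 of its 4 guides were lower with INX-315. Its score was -1.56 without DMSO 1 and -0.25 without DMSO 2. Of the cyclins T only cyclin T1 knockouts were thus called as lost, though CCNT2 also lay below DMSO. HEXIM2 scored 1.79, LARP7 1.04 and MEPCE 0.42.

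**Figure D2:**
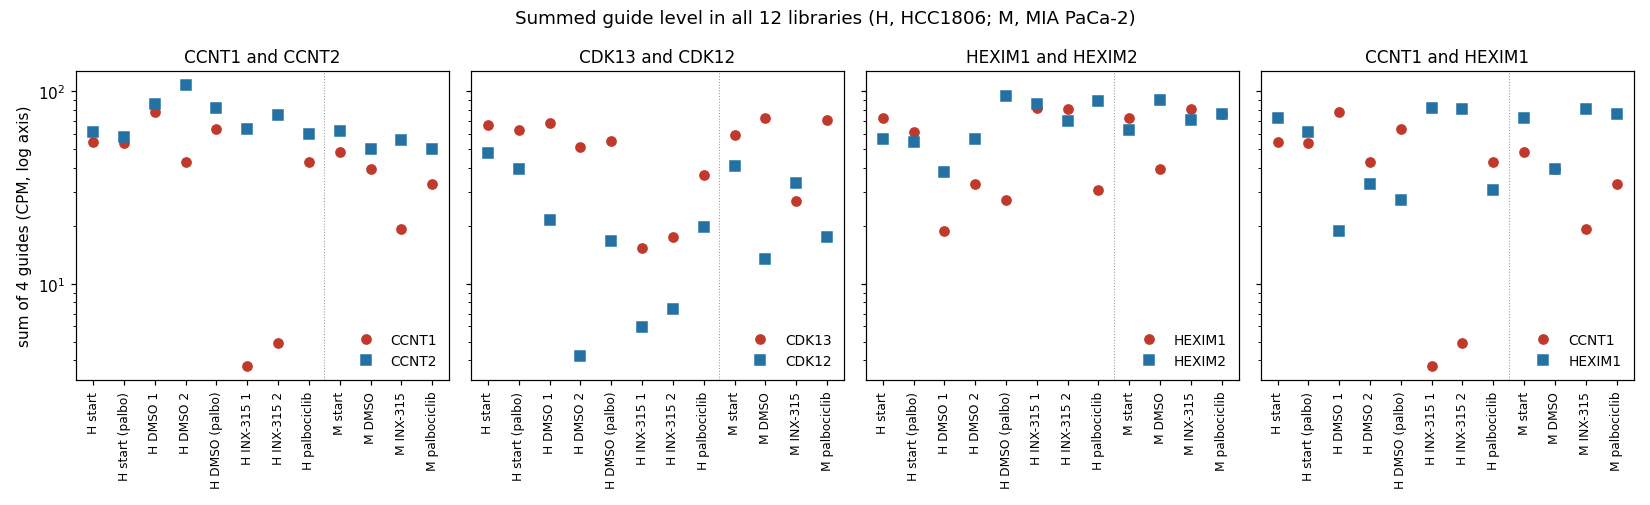
Sum of the 4 guides of a gene in CPM (log axis) in the 12 libraries, for 3 paralogue pairs and for CCNT1 beside HEXIM1. With INX-315 in HCC1806, CCNT1 lies at 3.73 and 4.93 CPM, with CCNT2 counts 17.2 and 15.3 times as high, while HEXIM1 lies at 81.7 and 80.6 CPM.

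The ratio of HEXIM1 to CCNT1 counts within a library does not depend on how the library is scaled. For this comparison it is a description and not separate support, since the opposite scores of both genes were known at the choice. It began at 1.32. It was 0.241 in DMSO 1, 0.772 in DMSO 2, 21.9 in the first INX-315 library and 16.3 in the other. Leaving out DMSO 1 gave scores of -8.33 for CCNT1, -5.81 for CDK13, 4.10 for HEXIM1 and 2.39 for HEXIM2, which then passed 2. Leaving out DMSO 2, so that DMSO 1 was the only control, gave -4.18 for CCNT1, -2.70 for CDK13, 2.11 for HEXIM1 and 0.87 for HEXIM2. The first 3 of these genes kept their calls in both, and without DMSO 2 their scores shrank by over 1.5 times.

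In MIA PaCa-2 with INX-315, CDK13 was the only member past 2 or -2, at -2.61. It was the 150th lowest of 18050 genes, of which 2.88% were called low and 1.65% high. Its guides summed to 59.0 CPM at the start, 72.9 CPM with DMSO and 26.9 CPM with INX-315, and all 4 were lower with INX-315, by -2.06 to -0.57. A lower level of CDK13 knockouts with INX-315 than with DMSO was thus seen in both lines. HEXIM1 scored 1.84 (451st highest), from 72.7 CPM at the start, 39.4 CPM with DMSO and 80.9 CPM with INX-315, and 3 of 4 guides were higher. CCNT1 scored -0.98, from 48.6 to 39.6 and 19.3 CPM, and 3 of 4 guides were lower.

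These HEXIM1 and CCNT1 values have the sign they have in HCC1806 but did not reach the call. The guide of CCNT1 at chr12:49110426-49110445 (minus strand) went against the other 3, with 99 counts in DMSO and 302 with INX-315, and with the median log2 ratio of the guides in place of their sum CCNT1 stood at -2.08 and HEXIM1 at 2.17, under a setting that called 488 genes high in place of 297. The HEXIM1 to CCNT1 ratio was 1.5 at the start, 0.996 with DMSO and 4.19 with INX-315.

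CDK12 and CCNK, which were depleted with DMSO, were less so with INX-315 in this line. CDK12 summed to 13.4 CPM with DMSO and 33.5 CPM with INX-315 (score 1.63, 41.0 CPM at the start) and CCNK to 7.22 and 18.5 CPM (score 1.61, 35.4 CPM at the start). For each, 3 of 4 guides were higher and 1 lower, the lower guide of CDK12 by -1.69. With the median of the guides, which called 488 genes high in place of 297, CDK12 scored 3.37 and CCNK 2.29. CDK12 and CDK13, which share cyclin K, therefore lay on opposite sides of 0 in MIA PaCa-2, and the ratio of CDK12 to CDK13 counts was 0.695 at the start, 0.184 with DMSO and 1.24 with INX-315. LARP7 (1.00), MEPCE (0.97), HEXIM2 (-0.64), CDK9 (-0.40) and CCNT2 (-0.07) stayed between the thresholds.

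With libraries as replicates and the spread taken from HCC1806, no gene passed (0% of 18051; 930 at an unadjusted p under 0.05, 107 adjusted by DESeq2). CDK13 stood at -1.41 ± 0.40 (SE), with an unadjusted p of 0.00943 and an adjusted p of 0.928 from edgeR, and HEXIM1 at 1.06 ± 0.37 (adjusted p = 0.942). The INX-315 library of MIA PaCa-2 also stood further from its DMSO library over all guides (r = 0.700 of log2 CPM) than the palbociclib library did (r = 0.910), and the part of this in the member values was not tested.

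In MIA PaCa-2, HEXIM1 scored 3.52 with palbociclib, the 14th highest of 18050 genes, and was the only member called (1.78% were called high and 2.64% low). All 4 guides were higher than with DMSO, by 0.40 to 1.75 (mean 0.94 ± 0.60), and summed to 76.3 CPM against 39.4 CPM with DMSO and 72.7 CPM at the start. As with INX-315, HEXIM1 guides stood at their starting level with the drug (0.12 ± 0.43) and below it with DMSO (-0.83 ± 0.57). The palbociclib and INX-315 comparisons of MIA PaCa-2 share this DMSO library, so a low HEXIM1 value in it would raise both scores, and they do not count as 2 observations.

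In that comparison the other 9 members stayed between -1.45 (MEPCE) and 1.06 (CDK12). CDK13 scored 0.22, with 70.7 CPM against 72.9 CPM with DMSO, and CCNT1 -0.25, with 32.9 against 39.6 CPM. CDK13 was therefore called with INX-315 and not with palbociclib in this line, and the difference between the drugs was not tested. By edgeR HEXIM1 stood at 0.95 ± 0.37 (adjusted p = 1), and no gene passed (0%; 17 at an unadjusted p under 0.05, 2 adjusted by DESeq2).

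HCC1806 gave another order. HEXIM1 scored 0.50 with palbociclib, with 30.8 CPM against 27.4 CPM in the DMSO library of that screen and 61.6 CPM at its start, so its guides were depleted with and without this drug. LARP7 scored -3.10, the 37th lowest of 18040 genes, and CDK9 -2.39, the 185th lowest (2.53% of genes were called low and 1.99% high). LARP7 guides summed to 84.2 CPM at the start, 51.2 CPM with DMSO and 28.8 CPM with palbociclib, and all 4 were lower with palbociclib, by -1.54 to -0.47. CDK9 guides summed to 52.5, 10.1 and 2.77 CPM, and the 3 guides with a count in either library were all lower. CDK13 (-1.91), CCNT2 (-1.58) and CCNT1 (-1.39) were on the same side short of the call, and CCNK stood at 1.68. CDK9, a part of P-TEFb, and LARP7, a part of its inhibitor, thus both scored low here.

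Set against all 3 DMSO libraries of HCC1806 by edgeR, LARP7 with palbociclib stood at -0.62 ± 0.41 and CDK9 at -1.61 ± 0.55 (adjusted p = 0.968 for both), and no gene passed (0%; 323 at an unadjusted p under 0.05, 15 adjusted by DESeq2). LARP7 was at 28.8 CPM with palbociclib, below its 51.2 and 53.1 CPM in the DMSO library of that screen and in DMSO 2 and above its 23.0 CPM in DMSO 1. Among all genes it stood at the 7.59th percentile with palbociclib and at the 19.9th in DMSO 1. Without DMSO 1 the change of LARP7 was -0.87 (adjusted p = 0.467 by edgeR). CDK9 at 2.77 CPM was below its 6.78, 7.22 and 10.1 CPM in the DMSO libraries.

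**Figure D3:**
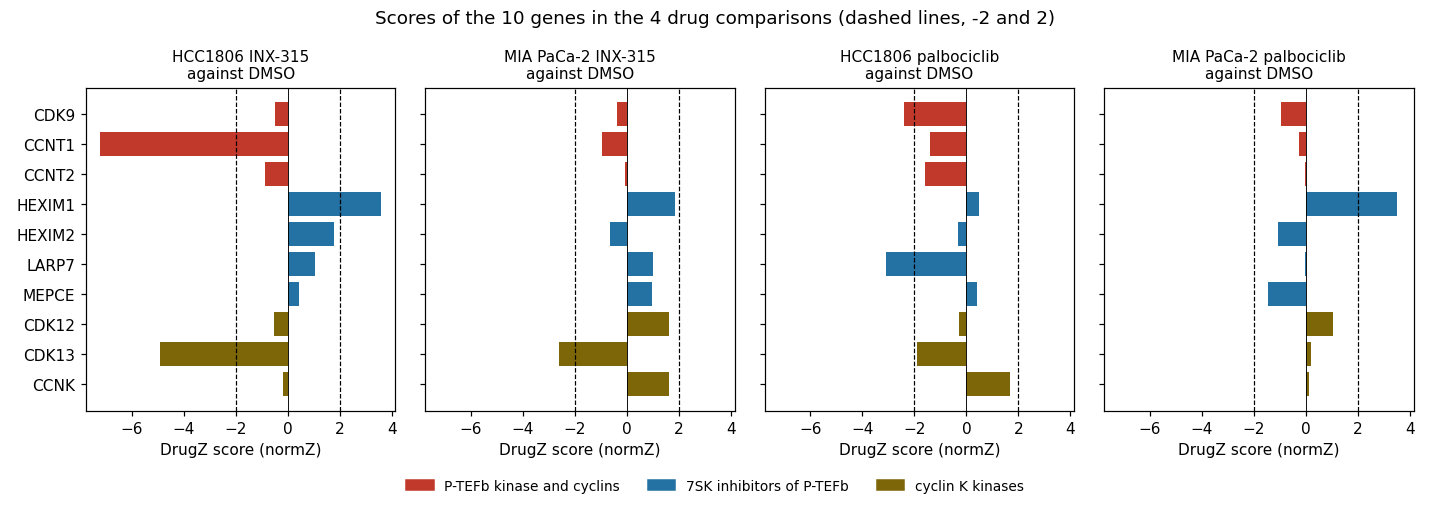
DrugZ scores (normZ) of the 10 genes in the 4 drug comparisons, coloured by role, with dashed lines at -2 and 2. HEXIM1 is positive in all 4 (3.60, 1.84, 0.50 and 3.52), CDK13 is under -2 with INX-315 in both lines (-4.89 and -2.61), and CCNT1 is under -2 in HCC1806 with INX-315 alone.

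Over the 9 grown libraries, CCNT1 and CDK13 changed from the start in a similar pattern (Pearson r = 0.882). CDK13 was in 19th place among the 17628 genes with at least 3 guides. CCNT1 was lowest in the INX-315 libraries of HCC1806 (-3.13 and -2.90), and its score there was known at the choice. Likeness to CCNT1 is shaped mostly by those libraries, so it is a description and not separate from the INX-315 scores. CCNT1 and HEXIM1 stood at r = -0.622, a sign that the choice of members fixed, since their opposite scores with INX-315 in HCC1806 were known and those libraries are among the 9. CDK9, the kinase of cyclin T1, was at r = 0.304 with CCNT1, being low in all 9 libraries. The 5 genes most like CCNT1 were CCNB2 (r = 0.984), which encodes a B-type mitotic cyclin, LIN37 (0.957), a subunit of the MuvB core of the DREAM complex, CNTROB (0.942), which encodes a centriole protein, MYOM3 (0.938) and COL1A2 (0.930). CCNB2 stood between -0.07 and 0.11 in the DMSO libraries of HCC1806 and at -2.08 in INX-315 2, and COL1A2 ranged from -0.07 to 0.84, so the measure compares shape and not size.

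The genes most like HEXIM1 were RPS27L (r = 0.983), OR12D3 (0.965), SLC6A5 (0.965), CRCP (0.952) and TYW1 (0.951). OR12D3 is an olfactory receptor gene, and its changes ran from -0.85 in DMSO 1 to 0.23, against -2.48 to 0.16 for HEXIM1. LARP7 was the member most like HEXIM1 (r = 0.760), though in 1766th place, well behind the genes above. The likeness is described over libraries that share starts within a screen. Without DMSO 1, in which most genes were low, RPS27L (0.964) and CCNB2 (0.985) kept their first places, CDK13 was at r = 0.888 with CCNT1 in 69th place, and LARP7 was at r = 0.577 with HEXIM1.

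The pathway was followed further in 6 lists of 41 genes, which were put together with some of the INX-315 scores known. In HCC1806 with DMSO, 9 of the 41 fell by edgeR and 0 rose, where 3.42% of all genes fell and 0.0277% rose. They were SUPT4H1 of DSIF (-2.08 ± 0.39), WDR61 of the PAF1 complex, JMJD6 (-1.98 ± 0.33), the phosphatase subunits SSU72, CTDP1 and WDR82, and the CDK-activating kinase genes CDK7, CCNH and MNAT1. CDK7 phosphorylates CDK9 and stood at -3.70 ± 0.44 (adjusted p = 0.0142). No factor of the super elongation complex passed, and these stood between -1.88 (ELL) and 0.91 (MLLT3).

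With drug, 8 of these 41 genes were called in either direction in HCC1806 with INX-315 (19.5%, beside 4.18% of all genes). With palbociclib in HCC1806 there were 5 (12.2%, beside 4.52%). Nothing is read from the shares with INX-315, since some of those scores were known when the lists were put together. The INX-315 scores in HCC1806 also use DMSO 1 as a control, and for these genes they are given only with it. In MIA PaCa-2 each drug gave 3 (7.32%, beside 4.52% of all genes with INX-315 and 4.42% with palbociclib), which is near the background. The median score of the super elongation complex was -0.15 in HCC1806 and -0.36 in MIA PaCa-2 with INX-315, beside 0.04 over all genes in both, and 1 of 9 was called, AFF4 (-2.23 in HCC1806), the scaffold that binds cyclin T. Among the genes that free P-TEFb from 7SK or recruit the 7SK complex, the phosphatase PPM1G scored -4.88 in MIA PaCa-2 under INX-315 and -0.25 in HCC1806, where TRIM28 scored -2.09. JMJD6 scored 3.07 with palbociclib in MIA PaCa-2, the comparison in which HEXIM1 scored 3.52. CDC73 of the PAF1 complex was low with INX-315 in both lines, at -2.21 and -2.63, and its partner CTR9 stood at 2.08 and 0.86.

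The Mediator kinase CDK8 and its cyclin CCNC scored -6.42 and -5.25 with INX-315 in HCC1806, beside -7.21 for CCNT1. In MIA PaCa-2 they stood at 0.90 and -1.73, and with palbociclib in HCC1806 CDK8 stood on the other side, at 2.14. NELFE, a subunit of the pausing factor NELF, was under -2 in HCC1806 with both drugs (-2.67 and -2.31) and at 1.21 and 1.05 in MIA PaCa-2. Of the polymerase tail phosphatases and their partners, RPRD1A scored 2.06 in HCC1806 and RPAP2 2.19 in MIA PaCa-2 with INX-315. With palbociclib in HCC1806, RPRD1B scored 2.58, RPRD2 -2.17 and EAF1 of the super elongation complex 2.13. In MIA PaCa-2 with palbociclib MLLT1 and AFF1 of that complex scored -2.45 and -2.21.

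**Figure D4:**
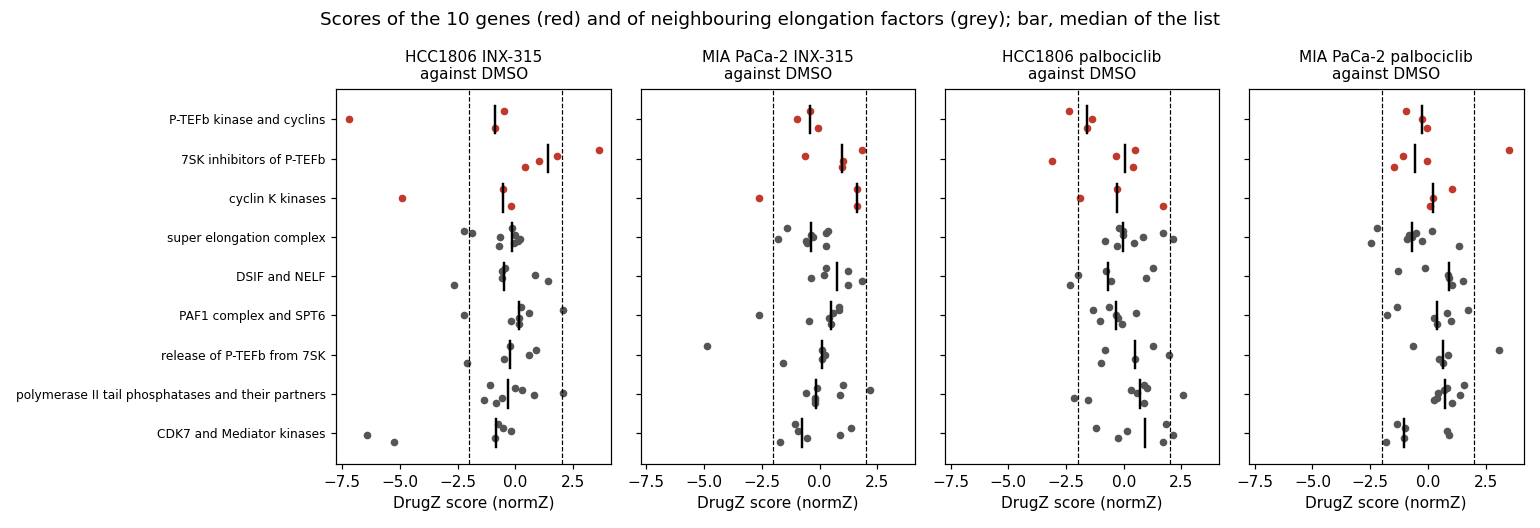
DrugZ scores of the 10 genes by role (red) and of 41 other genes in 6 lists (grey) in the 4 drug comparisons. Bars mark the median of each list, and dashed lines lie at -2 and 2. The medians of all lists lie between -1.58 and 1.61, and single genes such as CCNT1 (-7.21) and CDK8 (-6.42) lie far from the median of their list.

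The target sites of guides to 1 gene sometimes overlap by their coordinates, which bears on how far the guides count as separate. A pair of guides overlapped by 3 bases in CCNT2, 3 in HEXIM2 and 6 in LARP7. The overlapping CCNT2 guides at chr2:135676482-135676501 (plus strand) and chr2:135676499-135676518 (minus strand) still differed, with changes of 2.02 and 0.16 in DMSO 1. In LARP7 the overlapping guides had 275 and 2397 counts with INX-315 in MIA PaCa-2, from 1019 and 1969 at the start. The guides of CCNT1, HEXIM1, CDK13, CDK9, MEPCE, CDK12 and CCNK did not overlap.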

How the data were processed

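Guides were amplified from genomic DNA by PCR, sequenced and counted with MAGeCK (5.9 per the labels). The authors deposited raw counts, used here, and a normalized signal, in which the counts of a library are multiplied by 1 factor. The members, the lists and the tests were chosen with earlier results of these data known. Genes were named from the guide names, and 1 gene of the lists is not reported here. DrugZ was recomputed in Python 3.11.15 (numpy 2.4.6, pandas 2.3.3) from its published algorithm with libraries scaled to 10000000 counts, a pseudocount of 5 and a window of 1000 guides. Guides at 0 in all libraries of a comparison and the 142 non-targeting guides were left out. INX-315 and DMSO libraries of HCC1806 were paired by number, although their deviations correlated at -0.01 over guides. Gene sums were tested with edgeR 4.0.16 (R 4.3.3, TMM, filterByExpr, quasi-likelihood, Benjamini-Hochberg over 18051 genes), and DESeq2 1.42.0 was an alternative. Figures used matplotlib 3.10.9.

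The named genes are all 10 members, up to 3 genes of each list and comparison past a normZ of 2 or -2, and the 5 genes most like CCNT1 and HEXIM1. Genes that passed the DMSO test, and the ends of a range, were named after their values were seen. On simulated data for HCC1806 DMSO against start (18051 genes), edgeR recovered 60 of 100 genes changed by 2 on the log2 scale and 2 of 100 changed by 1. For HCC1806 with INX-315, DrugZ passed 2 or -2 for 48 and 50 of 50 genes raised or lowered by 2, and for 24 and 22 of 50 changed by 1, beside 3.65% of unchanged genes. The alternatives were other pseudocounts, a minimum of 30 control counts, the normalized tables, totals over olfactory receptor guides, a smaller window, the median guide, no replicate block, each library left out, a normZ of 3, and for edgeR other size factors, no filter and a screen term.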

Additional observations from a re-analysis of the deposited data

How the results depend on the processing

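No member call changed sign. In an alternative chosen after seeing the data, leaving DMSO 1 out of the likeness over libraries turned HEXIM2 from 0.485 to -0.2 with HEXIM1 and from -0.145 to 0.019 with CCNT1. Of 370 DrugZ values of members under alternatives, 359 kept their side of 2 or -2, 9 passed it newly and 2 lost it, both at a normZ of 3 (CDK13 at -2.61 in MIA PaCa-2 with INX-315 and CDK9 at -2.39 in HCC1806 with palbociclib). Of 600 edgeR values, 584 kept their side. CDK9, MEPCE and HEXIM1 missed the threshold in HCC1806 DMSO with a screen term (adjusted p = 0.051, 0.072 and 0.0719 by edgeR), and HEXIM1 without the DMSO library of the palbociclib screen (0.0638). The cause was not tested.

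With no replicate block, 193 genes were called high and 621 low in HCC1806 with INX-315, against 252 and 502, with CCNT1 at -6.16 and HEXIM1 at 3.21. No member call changed, and the replicate numbers did not pair the libraries (correlation of deviations -0.01). Leaving out a pair or a DMSO library gave 218 to 258 and 487 to 536. At a normZ of 3 INX-315 gave 14 high and 94 low calls in HCC1806 and 12 high and 69 low in MIA PaCa-2, and palbociclib 42 and 45, then 26 and 41. The median guide gave 483, 488, 943 and 590 high calls in that order.

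For HCC1806 DMSO against start, edgeR called 617 genes lower and 5 higher. DESeq2 called 1686 and 341, olfactory receptor totals 977 lower, and a screen term 225 and 1. Leaving out 1 library gave 0 to 1986 lower, 0 without either start and 1986 without DMSO 1, and 0 to 1030 higher. DESeq2 called 115 lower in MIA PaCa-2 DMSO, 34 and 5 for the line difference, 4 and 11 with palbociclib in HCC1806, 70 and 37 with INX-315 and 2 higher with palbociclib in MIA PaCa-2, where edgeR called 0. Leaving out 1 library gave 0 to 1 there, with 1 higher in HCC1806 with palbociclib and 1 in each direction in MIA PaCa-2 with INX-315.

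Guides at 0 bound the loss of CDK9, MEPCE and CCNK, and single libraries in MIA PaCa-2 and with palbociclib leave the spread between cultures unmeasured there.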
